A study of Mus musculus with 10 samples.

Results

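Enzymes that spend S-adenosylmethionine on small molecules were followed in the liver of mice lacking glycine N-methyltransferase. They were Nnmt, Pemt, Inmt, Gamt, Tpmt and As3mt, chosen by gene symbol, and each was read from its probe set with the highest mean signal over 10 Affymetrix arrays. All 6 of 6 genes passed the filter on low signals, among 11507 of 18193 genes in all, and the 6 genes together had 9 probe sets. Tpmt had 4 of these and each of the others had 1.

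All mice were of a mixed 129/B6 strain. At 11 weeks there were 2 wild-type arrays and 2 Gnmt knockout arrays, 1 female and 1 male of each genotype, and each array held equal amounts of liver RNA from 3 mice. The aged animals were all Gnmt knockout, and each of their arrays held tissue of a single animal. A female of 21 months gave a dysplastic nodule, and a male of 18 months and a female of 14 months each gave a hepatocellular carcinoma (HCC). Liver beside each of these 3 lesions was also arrayed. No aged wild-type liver was among the samples used here, and adjacent liver is tissue beside a lesion in an animal that bears one. A lesion was paired with the adjacent liver whose sex and age it shared, as tissue of 1 mouse, which the labels do not state.

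S-adenosylmethionine (SAM) is the methyl donor of most cellular methylation reactions, and each transfer leaves S-adenosylhomocysteine. GNMT, an abundant enzyme of the hepatocyte, methylates glycine to sarcosine and so disposes of surplus SAM. PEMT methylates phosphatidylethanolamine to phosphatidylcholine, GAMT makes creatine from guanidinoacetate, and NNMT methylates nicotinamide. INMT methylates tryptamine and related amines, TPMT methylates thiopurine drugs, and AS3MT methylates arsenic. PEMT and GAMT are regarded as major users of SAM in the liver, and the other 4 act mostly on vitamins, amines and foreign compounds.

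The promoters of Inmt and Gamt are shown because both genes were lowest in the 18-month male, and those of Pemt because it was lower in every lesion by a similar amount. Each window runs from 250 bases before to 50 after the annotated start, 5′ to 3′ on the minus strand, from RefSeq on GRCm38.p6. Inmt lies at chr6:55174941-55175240 and Gamt at chr10:80260963-80261262. Pemt has 2 windows, a first at chr11:60040139-60040438 and a second at chr11:60036956-60037255. Capitals mark the TATA box letters TATAAA, the GC box letters GGGCGG and the palindrome TTCNNNGAA, which STAT factors are known to bind, on either strand. On the other strand the GC box reads CCGCCC, and no 2 marked motifs overlap.
Inmt: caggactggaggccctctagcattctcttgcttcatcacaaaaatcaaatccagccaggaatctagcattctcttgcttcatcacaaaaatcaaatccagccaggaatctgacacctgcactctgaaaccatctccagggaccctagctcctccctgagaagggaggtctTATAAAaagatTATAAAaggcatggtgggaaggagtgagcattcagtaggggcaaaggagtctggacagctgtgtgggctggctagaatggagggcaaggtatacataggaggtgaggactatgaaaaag
Gamt: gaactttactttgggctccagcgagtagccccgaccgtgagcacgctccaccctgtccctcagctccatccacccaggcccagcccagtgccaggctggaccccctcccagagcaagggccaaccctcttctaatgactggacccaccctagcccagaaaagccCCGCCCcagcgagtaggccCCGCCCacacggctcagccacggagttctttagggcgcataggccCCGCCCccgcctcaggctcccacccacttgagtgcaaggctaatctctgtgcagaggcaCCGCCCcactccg
Pemt first: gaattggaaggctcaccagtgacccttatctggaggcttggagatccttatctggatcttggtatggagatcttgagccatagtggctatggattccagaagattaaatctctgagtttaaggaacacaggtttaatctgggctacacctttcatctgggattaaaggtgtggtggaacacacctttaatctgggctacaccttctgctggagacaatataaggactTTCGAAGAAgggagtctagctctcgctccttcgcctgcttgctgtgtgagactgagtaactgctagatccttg
Pemt second: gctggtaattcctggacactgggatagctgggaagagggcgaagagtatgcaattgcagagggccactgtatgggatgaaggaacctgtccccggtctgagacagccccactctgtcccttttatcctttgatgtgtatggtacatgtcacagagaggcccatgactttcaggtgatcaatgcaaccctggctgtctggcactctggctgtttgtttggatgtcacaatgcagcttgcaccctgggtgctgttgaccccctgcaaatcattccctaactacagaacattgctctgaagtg

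Of the 6 genes, 5 were matched in the promoter table, and Nnmt was not matched. The Inmt window held 2 copies of TATAAA and 0 CG dinucleotides, with 47.7% G and C. The Gamt window was of another kind, with 4 copies of GGGCGG, 14 CG dinucleotides and 66.0% G and C. Tpmt was like Gamt, with 7 copies of GGGCGG and 22 CG dinucleotides, and As3mt held none of the 3 motifs. The first Pemt window held 1 TTCNNNGAA and the second held none of the 3. Of 32851 mouse windows of this length, 13.6% held TATAAA, 35.7% held GGGCGG and 8.3% held TTCNNNGAA, and the median window had 7 CG dinucleotides.

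The Gnmt probe set was checked first. Its signal was 59473 and 52140 in the wild-type pools, 245 and 190 in the knockout pools, and 11.7 to 329 on the 6 aged knockout arrays. Whether its probes lie in the deleted part of the gene is not given in the sources used here. In limma, knockout minus wild-type was -7.90 ± 0.20 (SE, n = 2 pools per genotype) on the log2(signal + 16.8) scale, with a Benjamini-Hochberg adjusted p of 3.91e-05. Median signals per array ran from 77.4 to 102.4 after the authors' scaling, with precision limited by how few arrays there are. Hepatocyte markers were high throughout, with a summed signal of 279667 to 404604. The ratio of the BioC to the BioB 3′ hybridisation control was 3.90 to 5.09 on the 4 young arrays and 1.45 to 1.84 on the 6 aged ones, so this control differed along with age, and its part in the aged against young comparison cannot be told apart from age. Both arrays of the 18-month male stood apart: they lay below all 8 other arrays in 9.36% of genes and above them in 12.3%. For the 21-month female these shares were 2.66% and 1.88%, and for the 14-month female 1.77% and 2.96%. Xist, transcribed from the inactive X chromosome, was at 9628 to 14923 on the 6 arrays labelled female and at 2.9 to 29.9 on those labelled male. Genes biased to female liver summed to 38823 to 68636 in the young female pools and to 42869 in the adjacent liver of the 21-month female. In both tissues of the 14-month female they summed to 1230 and 1111, within the 778 to 3072 of the male arrays. In the nodule of the 21-month female they summed to 14625. Genes biased to male liver summed to 24798 and 32059 in the adjacent liver and HCC of the 14-month female. They summed to 14423 and 21207 in the young female pools and to 76965 and 142608 in the young male pools. In the adjacent liver and HCC of the 18-month male they summed to 31061 and 15341. Because the 18-month male stood apart, results that rest on it are also given without that animal.

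None of the 6 enzymes passed an adjusted p of 0.05 in any of the 5 tested comparisons. Nnmt, Pemt, Inmt and As3mt were lower in the lesion than in its adjacent liver in all 3 pairs, as were 16.1% of genes. Nnmt and As3mt were higher in both knockout pools than in both wild-type pools, as were 21.6% of genes. Pemt was lower in both knockout pools than in both wild-type pools, as were 26.0%. In the genotype comparison 0 of 6 were called, against 0.765% of all genes, and 2 of 6 had an unadjusted p below 0.05, against 18.8%. In HCC against adjacent liver 0 of 6 were called, against 0.0869%, and 3 of 6 were below the unadjusted level, against 7.59%. With the nodule added these counts were 0 of 6 against 0.00869% and 4 of 6 against 9.78%. In aged adjacent liver against young knockout liver they were 0 of 6 against 0.0% and 3 of 6 against 12.1%, and 1393 genes in all were below the unadjusted level. For females against males at 11 weeks they were 0 of 6 against 0.243% and 0 of 6 against 8.79%.

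**Figure D1:**
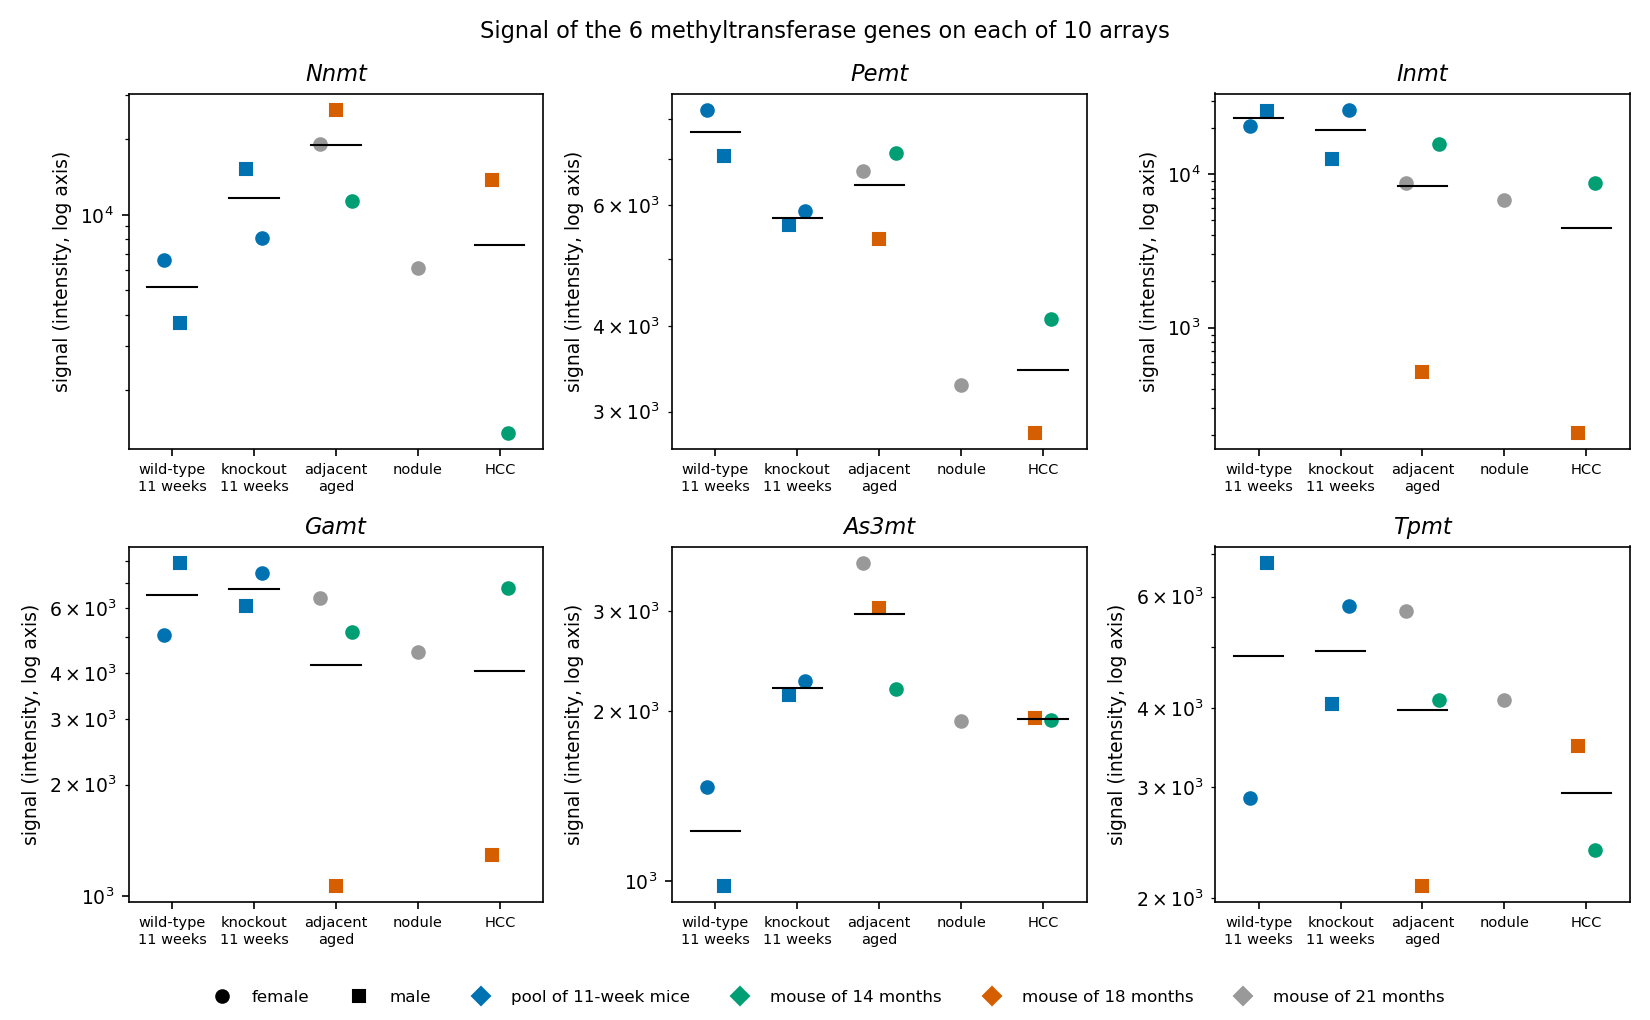
Signal of each enzyme's probe set (vertical, log axis) on each of 10 arrays by group, with circles for females, squares for males, colour for age and a bar at the group mean. Inmt and Gamt were far below the other arrays on both arrays of the 18-month male, and Pemt was lowest in the 3 lesions, as were 1.38% of genes.

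Nnmt encodes nicotinamide N-methyltransferase, which turns nicotinamide and SAM into methylnicotinamide and draws on the vitamin pool that feeds NAD. Its transcript was lower in each lesion than in the liver beside it, without passing the adjusted threshold over the 3 pairs. The nodule had a signal of 6150 beside 19221 in its adjacent liver, which was 3.12-fold lower. The male HCC had 13753 beside 26301, and the female HCC had 1353 beside 11320, the lowest of the 10 arrays. All 3 pairs thus ran the same way, by 1.91-fold in the male and 8.28-fold in the 14-month female. The log2 difference over 3 pairs was -1.88 ± 0.39 (SE), with an unadjusted p of 0.00247 and a limma adjusted p of 0.261. Over the 2 HCC pairs it was -1.99 ± 0.45, with a limma adjusted p of 0.201. With 1 array left out, the size moved from -2.35 to -1.29 over all lesions and from -3.59 to -0.62 over HCC. It was -1.29 without either array of the 14-month female, with limma adjusted p of 0.661 and 0.623. It was -2.35 and called without the male HCC array, with a limma adjusted p of 0.0192, and without that male's adjacent liver, with 0.0221. Those 2 fits take the difference from the same 2 pairs, of the nodule and the 14-month female, because an unpaired array adds nothing to it. In them 145 and 139 of 11507 genes were called. For HCC, -3.59 was the value without the male HCC array and -0.62 that without the female HCC array. Both come from a model over all remaining arrays that drops the pairing. The pairs themselves had -0.93 in the male and -3.05 in the 14-month female. Of 11507 genes, 26 had log2 differences of -0.93 or lower in all 3 pairs, counting Nnmt, whose weakest pair had -0.93.

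At 11 weeks Nnmt was higher in the knockout, most of all in males. The wild-type pools had signals of 6608 in females and 3699 in males, and the knockout pools 8095 and 15285. Both knockout pools lay above both wild-type pools, as they did in 21.6% of genes. The difference was 1.22-fold in females and 4.12-fold in males, and the fitted log2 value was 1.17 ± 0.39 (SE, n = 2 pools per genotype) with a limma adjusted p of 0.188. With the wild-type male pool left out, in a model over all remaining arrays, it was -0.05. Adjacent aged liver carried the highest group mean, 18947 ± 7494 (SD, n = 3), against 11690 ± 5084 (SD, n = 2) in young knockout and 5154 ± 2057 (SD, n = 2) in young wild-type liver. The ranges of every neighbouring pair of groups in that order overlapped. Aged adjacent minus young knockout liver was 0.83 ± 0.28 on the log2 scale, with a limma adjusted p of 0.393, and it was 0.86 within females and 0.78 within males.

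Of the 17 other genes of nicotinamide and NAD metabolism, 16 passed the filter and 0 were called in any of the 5 comparisons. In the lesions 12 of the 16 had a negative log2 difference, with a median of -0.27 beside 0.01 for all genes. Afmid, the formamidase of the kynurenine route to NAD, had -1.17 ± 0.33 in the lesions and -1.28 ± 0.24 in the young knockout, with limma adjusted p of 0.372 and 0.0667. Kynu, the kynureninase of the same route, had -0.84 ± 0.20 in the young knockout, with a limma adjusted p of 0.11. Aox3, an aldehyde oxidase, had -1.31 ± 0.26 in HCC against adjacent liver, with a limma adjusted p of 0.159, and 0.64 in the nodule pair.

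Pemt, the liver's own route to phosphatidylcholine beside the choline pathway, gave the most even lesion difference of the 6. Its signal was 3285 in the nodule beside 6734 in adjacent liver, 2796 in the male HCC beside 5349, and 4093 in the female HCC beside 7139. These differences were 2.04-fold, 1.91-fold and 1.74-fold, and the 3 lesions were the 3 lowest of the 10 arrays, as in 1.38% of genes. Over the pairs the log2 difference had a mean of -0.92 and an SD of 0.116. In limma it was -0.92 ± 0.17 (SE), with an unadjusted p of 0.00145 and an adjusted p of 0.226, and over the 2 HCC pairs -0.87 ± 0.26 with an adjusted p of 0.406. It stayed between -0.98 and -0.87 when any 1 of the 6 arrays was left out. A lower signal in all 3 pairs was found in 16.1% of genes and in 4 of the 6 enzymes. A signal at least 1.5-fold lower in all 3 was found in 0.895% of genes, and among the 6 in Nnmt and Pemt.

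In young liver Pemt was at 8261 in female and 7064 in male wild-type pools, and at 5880 and 5604 in the knockout pools. The knockout pools were below both wild-type pools, as in 26.0% of genes. The log2 difference was -0.41 ± 0.19, with an unadjusted p of 0.0709 and a limma adjusted p of 0.307. Aged adjacent minus young knockout liver was 0.11 ± 0.21, with a limma adjusted p of 0.85, and was -0.08 when arrays were centred on their 75th percentile. By mean signal the groups ran from young wild-type through adjacent and young knockout liver to HCC and nodule. In that order the ranges overlapped except for young knockout liver and HCC. Both HCC lay below both young knockout pools in 19.5% of all genes, and among the 6 in Pemt, Inmt, Tpmt and As3mt.

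Of 18 genes of choline and phosphatidylcholine metabolism besides Pemt, 17 passed the filter and 0 were called in any comparison. In the lesions 13 of 17 were negative, with a median of -0.30 beside 0.01 for all genes. Sardh, which demethylates sarcosine, had -1.17 ± 0.29 in the lesions with a limma adjusted p of 0.331. Gpcpd1, a glycerophosphocholine phosphodiesterase, had -1.0 ± 0.42 with a limma adjusted p of 0.525. Its pairs had -0.47 in the nodule, -0.16 in the male HCC and -2.36 in the female HCC. Chka, a choline kinase, went the other way, with 0.34, 1.32 and 0.88 in the same pairs. In the young knockout Chpt1, the last enzyme of the choline route, had -0.76 ± 0.19 with a limma adjusted p of 0.12, and Chkb, a choline kinase, had 0.83 ± 0.26 with a limma adjusted p of 0.171.

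**Figure D2:**
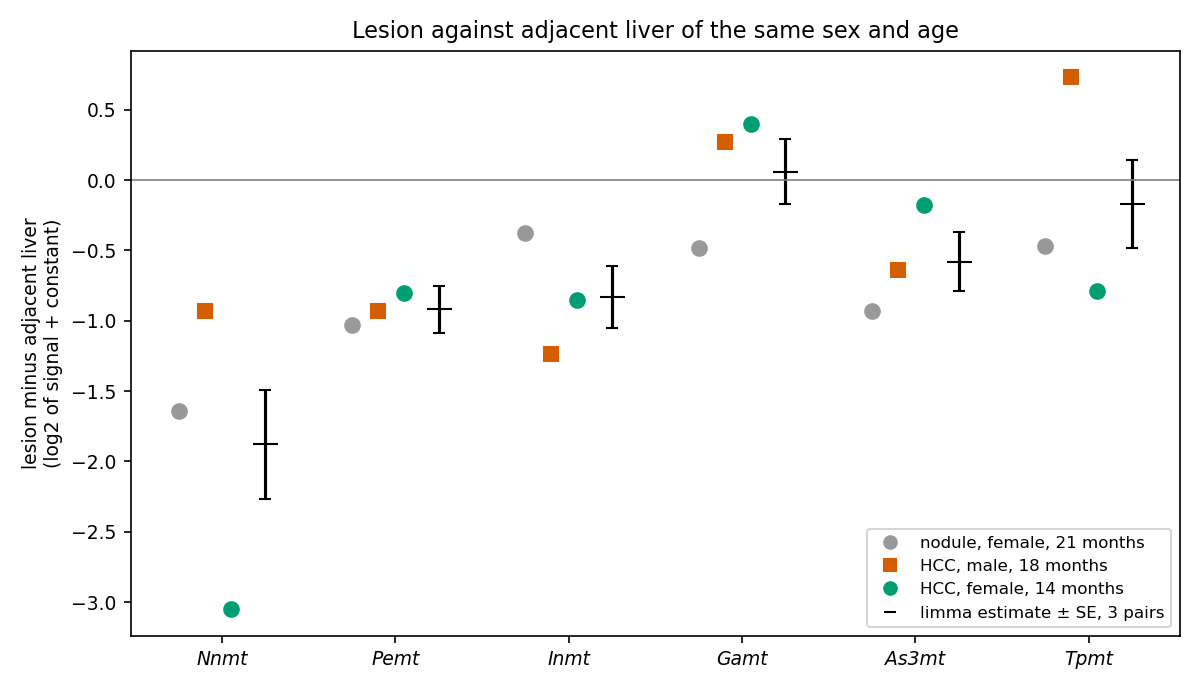
Lesion minus its paired adjacent liver, in log2(signal + 16.8), for each enzyme and pair, with the limma estimate and its SE over 3 pairs as bars. Nnmt, Pemt, Inmt and As3mt lay below 0 in all 3 pairs, as did 16.1% of genes, whereas Gamt and Tpmt lay on both sides.

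Inmt, the amine N-methyltransferase, and Gamt, the last step of creatine synthesis, shared 1 feature: both were far lower in the 18-month male than on the other 8 arrays. Inmt had a signal of 511 in that male's adjacent liver and 206 in its HCC. The other aged arrays had 8821 in the adjacent liver of the 21-month female, 6758 in its nodule, 15822 in the adjacent liver of the 14-month female and 8756 in its HCC. In young liver Inmt was at 20583 in female and 25828 in male wild-type pools, and at 26429 and 12664 in the knockout pools. The lowest of the 8 other arrays was 12.8-fold above the higher of the male's pair, and 3 of 11507 genes had a gap that large.

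Gamt had a signal of 1068 in the male's adjacent liver and 1288 in its HCC. It was at 6390 in the adjacent liver of the 21-month female, 4562 in its nodule, 5163 in the adjacent liver of the 14-month female and 6799 in its HCC. The young pools had 5060 in wild-type females, 7941 in wild-type males, 7424 in knockout females and 6050 in knockout males. Inmt and Gamt were thus 2 of the 6 enzymes below all 8 other arrays in that male, against 9.36% of genes. The gap of Gamt was 3.51-fold, and 31 genes had a gap as large. A gap of at least 2-fold was found in 0.921% of genes. The low signals were thus in both tissues of 1 mouse.

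Between lesion and adjacent liver Inmt was lower in all 3 pairs, by 1.30-fold in the nodule, 2.36-fold in the male and 1.81-fold in the 14-month female. Its log2 difference was -0.83 ± 0.22 over 3 pairs and -1.05 ± 0.27 over the 2 HCC pairs, with limma adjusted p of 0.353 and 0.275. With 1 array left out it ran from -1.05 to -0.62 over 3 pairs. Over HCC it ran from -2.89 to 0.39, in a model over all remaining arrays that drops the pairing. That model gave a positive value without the male HCC array, while Inmt was lower in both HCC pairs. Gamt went both ways, with -0.48 in the nodule, 0.27 in the male HCC and 0.40 in the female HCC. The lesion fit for Gamt was 0.06 ± 0.23 with a limma adjusted p of 0.957, and -0.01 when arrays were centred on their 75th percentile.

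Between aged adjacent and young knockout liver Inmt had the largest difference of the 6, -2.63 ± 0.71 with an unadjusted p of 0.0079 and a limma adjusted p of 0.393. Within females it was -1.16 and within males -4.59, which is 2.24-fold and 24.0-fold lower. All 3 adjacent livers together did not lie below both young knockout pools, because the 14-month female's 15822 exceeded the male pool's 12664. Gamt had -1.28 ± 0.45 with a limma adjusted p of 0.393, and -0.37 within females and -2.48 within males. Without the female knockout pool Inmt passed the threshold at -4.59, with a limma adjusted p of 0.0109, and Gamt at -2.48 with 0.016, as did 354 of 11507 genes. That fit sets the male's adjacent liver against 1 male pool and takes its spread from the adjacent livers of the females, so it compares single arrays and says nothing of age. Without the adjacent liver of the 21-month female Inmt passed at -2.66 with a limma adjusted p of 0.0321, as did 152 genes. Without the male's adjacent liver Inmt had -1.16, Gamt had -0.37, and neither was called. In the genotype comparison Inmt had -0.33 ± 0.32 and Gamt 0.08 ± 0.26, with limma adjusted p of 0.614 and 0.9, and Gamt had -0.03 under quantile normalization.

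Of the 9 other genes of tryptamine and amine metabolism, 5 passed the filter and 0 were called. In HCC against adjacent liver 5 of 5 were negative, with a median of -0.67, and in the nodule 3 of 5 were positive, with a median of 0.22. Ddc, the decarboxylase that makes tryptamine, had -1.13 ± 0.27 there and 1.73 ± 0.23 in females against males at 11 weeks, with limma adjusted p of 0.216 and 0.0606, and its log2 difference in the nodule pair was 1.84. Of the 9 other genes of creatine metabolism 6 passed the filter and 0 were called. Slc6a8, the creatine transporter, had 1.30 ± 0.27 in the young knockout with a limma adjusted p of 0.0804. Oat, the ornithine aminotransferase that is also a marker of pericentral hepatocytes, had -2.04 ± 0.25 in the lesions with a limma adjusted p of 0.0988.

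As3mt, which methylates arsenic, was higher in the young knockout pools of both sexes. Its signals were 1471 in wild-type females and 983 in wild-type males, and 2262 and 2136 in the knockout pools. Both knockout pools lay above both wild-type pools, as in 21.6% of genes, by 1.53-fold in females and 2.15-fold in males. The log2 difference of 0.86 ± 0.23 had the lowest p of the 6 in that comparison, 0.00843 unadjusted and 0.136 adjusted in limma. It ranged from 0.56 to 1.16 with 1 pool left out, in a model over all remaining arrays, aged ones included.

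All 8 knockout arrays, aged and young, had an As3mt signal above both wild-type pools, as in 7.9% of genes. The aged ones had no aged wild-type liver beside them, so for these genotype and age cannot be told apart. Adjacent liver had 3660 in the 21-month female, 3043 in the 18-month male and 2190 in the 14-month female, and the lesions had 1919, 1947 and 1930 in the same order. The lesions thus lay close together, and their differences from adjacent liver were -0.93, -0.64 and -0.18. The lesion fit was -0.58 ± 0.21, with an unadjusted p of 0.0293 and a limma adjusted p of 0.442. Aged adjacent minus young knockout liver was 0.40 ± 0.28 with a limma adjusted p of 0.565. By mean signal the order was adjacent liver, young knockout liver, HCC, nodule and young wild-type liver. The range of adjacent liver overlapped that of young knockout liver, and the nodule is 1 array, at 1919 beside 1930 and 1947 in HCC.

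Of 12 other genes of arsenic handling 10 passed the filter and 0 were called. The metallothioneins, which bind arsenic and other metals, had log2 differences of 1.07 ± 0.19 for Mt1 and 1.59 ± 0.30 for Mt2 in the young knockout, with limma adjusted p of 0.0637 and 0.0666. Aqp9, a liver channel that passes arsenite, had -1.02 ± 0.19 in the lesions with a limma adjusted p of 0.226. It was lower in each lesion, at 7721 beside 12975, 2372 beside 5617 and 5704 beside 12135.

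**Figure D3:**
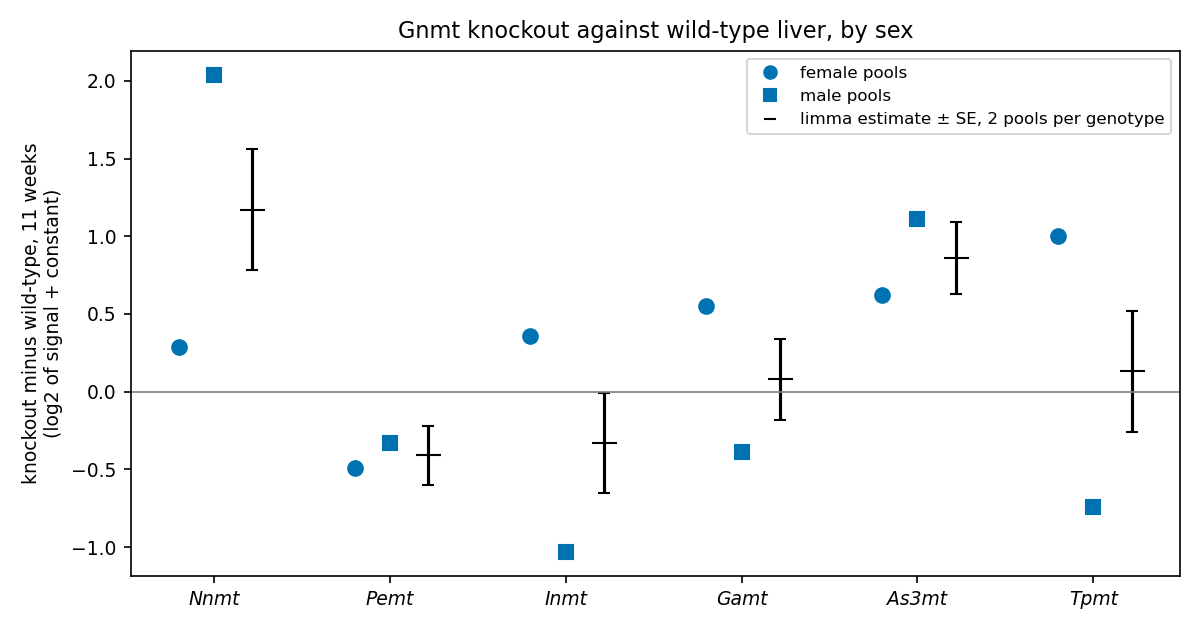
Knockout minus wild-type liver at 11 weeks, in log2(signal + 16.8), for the female pools (circles) and male pools (squares), with the limma estimate and its SE as bars. Nnmt and As3mt lay above 0 and Pemt below 0 in both sexes, whereas Inmt, Gamt and Tpmt had opposite signs in females and males.

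Tpmt, which inactivates thiopurine drugs by methylation, showed no shared direction. Its main probe set had signals of 2883 in wild-type females and 6791 in wild-type males, and of 5790 and 4057 in the knockout pools. Knockout minus wild-type was thus 1.0 in females and -0.74 in males, and the fitted value was 0.13 ± 0.39 with a limma adjusted p of 0.889. The lesions had 4111 in the nodule beside 5701, 3488 in the male HCC beside 2094, and 2381 in the female HCC beside 4117. Their fitted difference was -0.17 ± 0.31 with a limma adjusted p of 0.887. The ranges of all neighbouring groups in the order of mean signal overlapped.

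The other 3 Tpmt probe sets differed from the main one in 2 respects. In the male pools they had -0.05, 0.07 and -0.09 for knockout minus wild-type, where the main probe set had -0.74. All 4 were positive in females, from 0.55 to 1.25. On both arrays of the 18-month male the other 3 lay below all 8 other arrays, by log2 gaps of 0.76, 0.30 and 0.89, whereas the main probe set did not, with a gap of -0.55. None of the 4 was called in a fit over all probe sets, with limma adjusted p of 0.353 to 0.878 for genotype. All 8 other thiopurine genes passed the filter and 0 were called. Xdh, the xanthine dehydrogenase that also clears thiopurines, had -2.0 ± 0.33 in the young knockout with a limma adjusted p of 0.053.

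**Figure D4:**
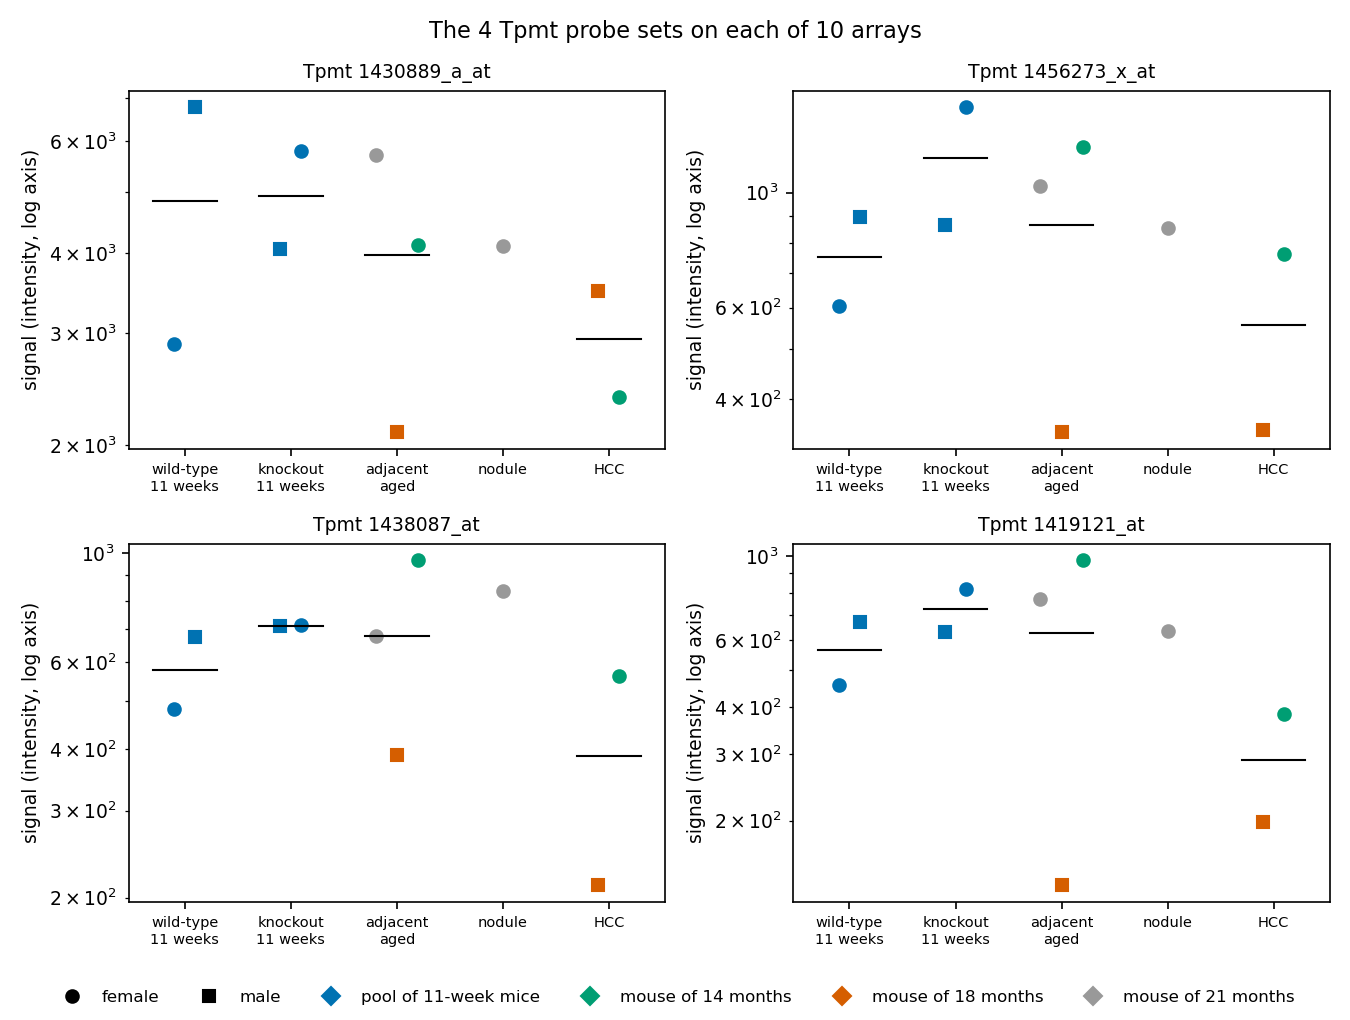
Signal (vertical, log axis) of the 4 Tpmt probe sets on each of 10 arrays by group, with circles for females, squares for males, colour for age and a bar at the group mean. The 2 arrays of the 18-month male were the lowest for 3 of the probe sets and not for the main one, at the upper left.

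None of the 6 genes was called between the sexes at 11 weeks. Females minus males ranged from -0.36 for Tpmt to 0.37 for Inmt, with limma adjusted p of 0.696 to 0.985. The models that also take in the aged arrays gave other sizes: with 1 pool left out they gave 3.29 to 3.70 for Inmt and -1.61 to -1.08 for Nnmt, against 0.37 and -0.04 in the 4 young arrays, and neither was called. The aged arrays labelled male were both of the 18-month male. The genotype difference was not called as differing between the sexes. A contrast of the 2 sexes in a model over all arrays, which takes its spread from the aged tissue, gave -1.75 ± 1.20 for Nnmt, 1.39 ± 0.69 for Inmt and 1.74 ± 0.87 for Tpmt. Unadjusted p ran from 0.065 for Gamt to 0.706 for Pemt, and the limma adjusted p was 1.0 for all 6.

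The supply of SAM was described by 7 core genes, all past the filter and none called. In the lesions 4 of 7 were negative, and in HCC alone 7 of 7, with a median of -0.19 beside 0.0 for all genes. Mat1a, the liver enzyme that makes SAM, was at 27512 in the nodule beside 44968, 12277 in the male HCC beside 36118, and 16833 in the female HCC beside 38164. Its log2 difference was -1.15 ± 0.23 over 3 pairs with a limma adjusted p of 0.226. Ahcy, which removes S-adenosylhomocysteine, had -0.73 ± 0.23 with a limma adjusted p of 0.408. Among 8 other small-molecule methyltransferases, Gnmt was the 1 called gene, in the genotype comparison. Coq3 of ubiquinone synthesis had 1.29 ± 0.23 there with a limma adjusted p of 0.062. In all, 77 of 88 genes in these 8 lists passed the filter. An unadjusted limma p below 0.05 was found for 26.0% of the 77 in the genotype comparison, beside 18.8% of all genes. The shares were 19.5% beside 7.59% in HCC and 18.2% beside 9.78% in all lesions. They were 16.9% beside 12.1% in aged against young knockout liver and 18.2% beside 8.79% between the sexes.

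Taking the 6 enzymes as a list, 5 had a negative lesion difference, with a median of -0.70 beside 0.01 for all genes. In the nodule, with 1 array a side and no test, all 6 were negative and the median was -0.70 beside 0.03. Nnmt and Pemt were at least 2-fold lower there, as were 4.36% of all genes, and 0 of 6 were 2-fold higher, against 8.63%. In HCC 5 of 6 were negative with a median of -0.64 beside 0.0, and in the young knockout 4 of 6 were positive with a median of 0.11 beside -0.05. In aged adjacent liver 3 of 6 were positive with a median of -0.22 beside 0.09. None of the 6 lay above both young knockout pools in all 3 adjacent livers, as 16.9% of genes did, and none lay below both, as 10.6% did.

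Marker genes of liver zones and other cells moved beside these values. In bulk tissue fewer cells of a type and less RNA per cell cannot be told apart. The summed signal of 10 pericentral hepatocyte markers was 113739 in the nodule beside 168931, 31926 in the male HCC beside 79025, and 76794 in the female HCC beside 151226. In the nodule pair most of this came from Cyp2e1, at 38572 beside 69707, and Oat, at 5427 beside 28294. Cyp1a2, Rhbg and Slc1a2 were higher in the nodule, at 37564 beside 34107, 1577 beside 634 and 874 beside 831, and the others were lower. In the lesion fit 9 of 10 were negative, with a median of -0.80. Of the 6 periportal markers past the filter 4 were negative there, with a median of -0.71. The neutrophil list summed to 15636 and 15358 on the male's arrays and to 471 to 1701 on the other 8. In the female HCC, where Nnmt was lowest, the adipocyte list summed to 38178 against 521 to 5445 elsewhere, mostly through Fabp4 at 27809 and Cidea at 10350, while Adipoq was at 3.4. In the young knockout 8 of 8 sinusoidal endothelial markers past the filter were negative, with sums of 5887 and 6596 beside 15520 and 11643 in wild-type liver. There 11 of 11 macrophage markers were negative too, with a median of -0.56, while 45.6% of all genes were positive. In the lesion fit 8 of 8 endothelial and 8 of 11 macrophage markers were positive, beside 51.2% of all genes. In aged adjacent against young knockout liver 5 of 8 and 11 of 11 were positive, beside 57.3%. The part of these in the values of the 6 enzymes was not tested.

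For each enzyme the 3 genes with the most similar profile were found by Pearson correlation of log2 values over the 10 arrays among 11071 genes. The arrays share mice and groups, so the coefficients are a description. For Nnmt they were Haus5 with 0.967, the aryl hydrocarbon receptor gene Ahr with 0.921 and the metallothionein Mt1 with 0.914. For Pemt they were Dpyd of pyrimidine breakdown with 0.958, Sod1 with 0.921 and Ercc6l2 with 0.920. Without the 2 arrays farthest from the median of each enzyme, Haus5 had 0.924, Ahr 0.883 and Mt1 0.841, and Dpyd had 0.888, Sod1 0.739 and Ercc6l2 0.758.
For Inmt they were the carboxylesterase Ces1d with 0.992, Hsd3b3 with 0.984 and Acat1 with 0.980, and for Gamt the glucose transporter Slc2a2 with 0.989, Ppara with 0.983 and Pygl, the liver glycogen phosphorylase, with 0.979. For these 2 the arrays farthest from the median were those of the 18-month male. Without them Ces1d had 0.908, Slc2a2 0.792 and Ppara 0.689. Inmt and Gamt correlated with each other at 0.946 over 10 arrays and at 0.465 over the 8 without the male. For Tpmt the nearest were Tiprl, Phlda1 and Adh5 with 0.919, 0.918 and 0.885, and for As3mt Dda1, Rbmxl1 and Ilf2 with 0.923, 0.911 and 0.900.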

How the data were processed

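Gene expression was measured with 10 Affymetrix arrays of mouse liver RNA, in 5 groups of 1 to 3 arrays. Per the labels' protocols, labelled RNA was made from 5 ug of total RNA. Per the submitters' processing notes the values come from GCOS, whose version and settings are not given in the sources used here. The deposited values are intensity, 1 linear signal per probe set, and each array's trimmed mean, with 2% left out at each end, was 500. Gene names came from the probe set table. A constant of 16.8, the 20th percentile of all signals, was added before taking log2. The probe set with the highest mean signal stood for each gene, and genes with a mean above 91.0, the median of all values, were kept.

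limma 3.58.1 in R 4.3.3 was used with an intensity trend, and p-values were adjusted by Benjamini-Hochberg over 11507 genes and called below 0.05. The genotype fit had sex as a term, the sex fit genotype, the lesion fits the mouse, and the aged against young fit sex. They left 1 or 2 residual degrees of freedom, so most of the error estimate is borrowed from other genes. Pools of 3 mice hide the spread between mice. The pairing of lesion and adjacent liver comes from shared sex and age in the labels. The genes, lists and tests were chosen with earlier results of these data known. Named were the 6 enzymes, Gnmt, called genes and genes among the 2 largest differences per list and comparison, and the 3 most similar genes per enzyme. Of the T and NK cell markers none passed the filter. The alternatives were another added constant, scaling, filter, variance prior, probe set rule, block or model, and leaving out each array.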

Additional observations from a re-analysis of the deposited data

Results flagged for a closer look

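Tpmt had differences of opposite sign in female and male arrays, each resting on 1 pool per genotype or 1 HCC pair. Knockout minus wild-type at 11 weeks was 1.0 in the female pools and -0.74 in the male pools, on the log2(signal + 16.8) scale. The difference between the sexes was 1.74 ± 0.87 in limma, with an unadjusted p of 0.0895 and an adjusted p of 1.0, in a model that takes its spread from the aged arrays. HCC minus adjacent liver was 0.73 in the 18-month male and -0.79 in the 14-month female, and the difference between these pairs was not tested. These animals also differ in age, so sex, age and animal cannot be told apart. The other 3 Tpmt probe sets had -0.05, 0.07 and -0.09 in the male pools, and 0.02, -0.83 and 0.50 in the male HCC. Groups of 1 to 3 arrays were too small for a search for single outlying arrays.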

How the results depend on the processing

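Over the alternatives, 430 values of the 6 enzymes and counts of enzymes called kept their direction and their side of the threshold, 32 changed sign and 5 passed the threshold only under the alternative. Of the nodule differences, which have no test, 1 moved by more than the SD over the 3 pairs. Sizes moved more than these counts show. No enzyme was called under any alternative except when an array was left out. The count of enzymes called ran from 0 to 1 in the lesions and from 0 to 2 in aged against young knockout liver, and the arrays that decide it are named with those genes.

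Counts of all genes called also changed with the processing. A count out of 6 enzymes that starts at 0 has little room to change, so it is not compared with them. For genotype the 88 genes became 133 with 0.5 times the added constant, 537 under quantile normalization, 258 with centring on the 75th percentile, 138 with no filter, 1 with no intensity trend, 30 with the mean of all probe sets, 1 in a model over all arrays, and 194 with a filter on the mean log2 value that was chosen after seeing the data. For HCC the 10 became 2 under quantile normalization, 3 with centring, 19 with no filter, 0 with no intensity trend, 0 with the mean of all probe sets and 1 in the model over all arrays. For all lesions the 1 became 3 with no filter, 0 with no intensity trend, 0 with the mean of all probe sets and 5 in the model over all arrays. For females against males the 28 became 67 under quantile normalization, 2 with no intensity trend and 18 with the mean of all probe sets. With no replicate block, so without the sex, mouse or genotype term, the counts were 2 for genotype, 0 for HCC, 0 for all lesions and 6 for the sexes, and 0 of 6 enzymes were called. With 1 array left out, the counts ran from 0 to 6 for genotype, 0 to 3 for HCC, 2 to 145 for all lesions, 0 to 354 for aged against young and 5 to 26 for the sexes.

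Signs turned for small differences. Gamt was -0.03 for genotype under quantile normalization and -0.01 in the lesions with centring, Pemt was -0.08 in aged against young with centring, and Nnmt was 0.01 between the sexes under quantile normalization. In the model over all arrays females minus males was 1.21 for Gamt and 0.08 for Tpmt, and, with the sign kept, 2.77 for Inmt and -1.04 for Nnmt. Leaving out 1 array gave ranges that cross 0 or lie on its other side. For genotype they were -0.05 to 2.39 for Nnmt, -1.13 to 1.29 for Gamt, -2.35 to 1.68 for Inmt and -0.72 to 0.98 for Tpmt. For HCC they were -0.77 to 0.76 for Gamt, -2.89 to 0.39 for Inmt and -0.96 to 0.11 for Tpmt. For all lesions they were -0.11 to 0.33 for Gamt and -0.63 to 0.13 for Tpmt, and for aged against young -0.07 to 0.24 for Pemt. Between the sexes they were 1.48 to 1.77 for Gamt, -0.05 to 0.47 for Tpmt and -0.02 to 0.13 for As3mt. Where this left no residual degree of freedom, the model over all remaining arrays was used, which assumes that the single array left varies like those of other groups, with the sex term drawing on aged tissue. The cause of these changes was not tested. In the nodule Pemt was -1.16 with centring. Centring moved the median of all genes from -0.05 to 0.10 for genotype, from 0.09 to -0.10 for aged against young and from 0.03 to -0.09 for the sexes.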
